A study of Mus musculus with 4 samples.

Results

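The genes described here are 40 genes of RNA polymerase I transcription and ribosome biogenesis in mouse ST2 cells exposed to low-intensity pulsed ultrasound (LIPUS). They were chosen by name, as subunits and initiation factors of RNA polymerase I, nucleolar proteins, small nucleolar ribonucleoprotein (snoRNP) proteins, processing and assembly factors of both ribosomal subunits, and Myc. The list was selected on the lower Polr1b signal at 0.5 h, with earlier results of these arrays known, so the values of all members against the control are given as a description. All 40 had a probe set among the 18193 genes with a probe set of 1 gene symbol. ST2 is an established, fibroblast-like stromal line from the bone marrow of a BALB/c mouse. All cells grew in RPMI medium with fetal bovine serum. The control was kept at 37 °C without LIPUS; the other groups received LIPUS at 25 mW/cm2 for 20 min and were then returned to 37 °C for 0.5, 1 or 3 h. The labels do not say whether the control dish was handled like the exposed dishes. Each group was 1 array of 1 line, so there was no replicate, no test and no p-value, and the spread between cultures is unknown.

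RNA polymerase I transcribes a single product, the long precursor of the ribosomal RNAs, inside the nucleolus. Small nucleolar RNAs held by box C/D and box H/ACA proteins guide its methylation and pseudouridylation, and the small subunit processome and a set of large subunit assembly factors fold and cut it into the mature rRNAs. The transcription factor MYC is known to drive many of these genes, and ribosome production is among the costliest processes of a growing cell.

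Against the same control array, the list was shifted lower at 3 h but hardly at 0.5 h or 1 h, and 2 members passed a 1.5-fold difference: Polr1b at 0.5 h and 1 h, and Nolc1 at 3 h. The median log2 difference of the 40 members was -0.02 at 0.5 h, -0.04 at 1 h and -0.13 at 3 h, beside 0.01, 0.02 and 0.01 over all genes measured. At 3 h, 31 of 40 members lay below the control, against 47.5% of all genes measured, and the middle 50% of the members ran from -0.27 to -0.06. At 0.5 h the count was 26 of 40, against 46.9% of all genes, and at 1 h it was 22 of 40, against 45.1%. With the arrays rescaled in 3 other ways, the count ran from 20 to 28 at 0.5 h, from 22 to 27 at 1 h and from 32 to 33 at 3 h. The share of all genes ran with it from 41% to 49.9% at 0.5 h, from 40.7% to 51.5% at 1 h and from 48.2% to 52.4% at 3 h. The 3 comparisons share the control array, so they are not separate evidence of direction. A signal from bulk RNA also cannot tell fewer cells that make a transcript from less of it per cell.

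**Figure D1:**
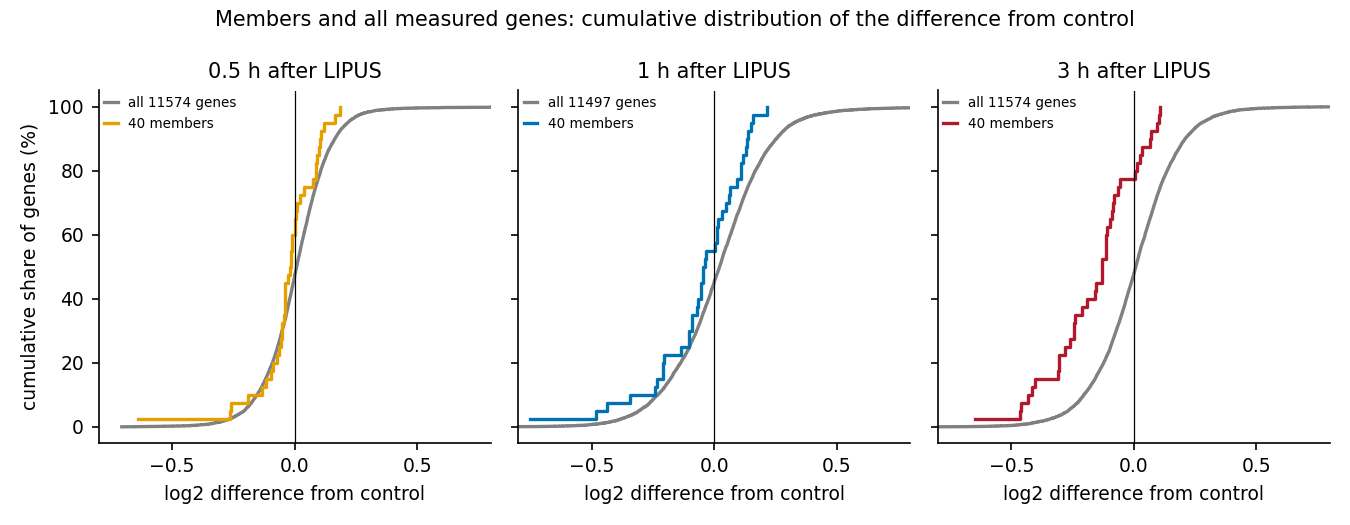
Cumulative share of genes (%, vertical axis) by log2 difference from the control (horizontal axis) at each time after LIPUS, with the 40 members as a coloured line and all genes measured in grey. The member line lies left of the grey line over most of its length at 3 h, with medians of -0.13 and 0.01, and close to it near the median at 0.5 h.

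The counts at fixed sizes of difference were small. At 0.5 h, 1 of 40 members (Polr1b) was at least 1.5-fold lower, against 0.104% of all genes; since the list was selected on this value, nothing is read from it. At 1 h the count was again 1 (Polr1b), against 0.331%. This value shares the control array with the one used for selection, so nothing is read from it either. At 3 h the count was 1 (Nolc1), against 0.181%. None of the 40 was at least 1.5-fold higher at 0.5, 1 or 3 h, where 0.372%, 0.948% and 0.346% of all genes were. No member reached 2-fold in either direction. At a wider limit, a log2 difference of 0.32, the members lower numbered 1 at 0.5 h, 4 at 1 h (Polr1b, Nop16, Bop1 and Nolc1) and 6 at 3 h (Nolc1, Nop56, Nop16, Polr1b, Rrp12 and Bop1), against 1.29%, 4.25% and 2.93% of all genes. Members higher by that limit numbered 0 at each time, against 1.37%, 5.32% and 3.26%. Without Polr1b, on which the list was selected, the members lower by this limit number 0, 3 and 5.

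**Figure D2:**
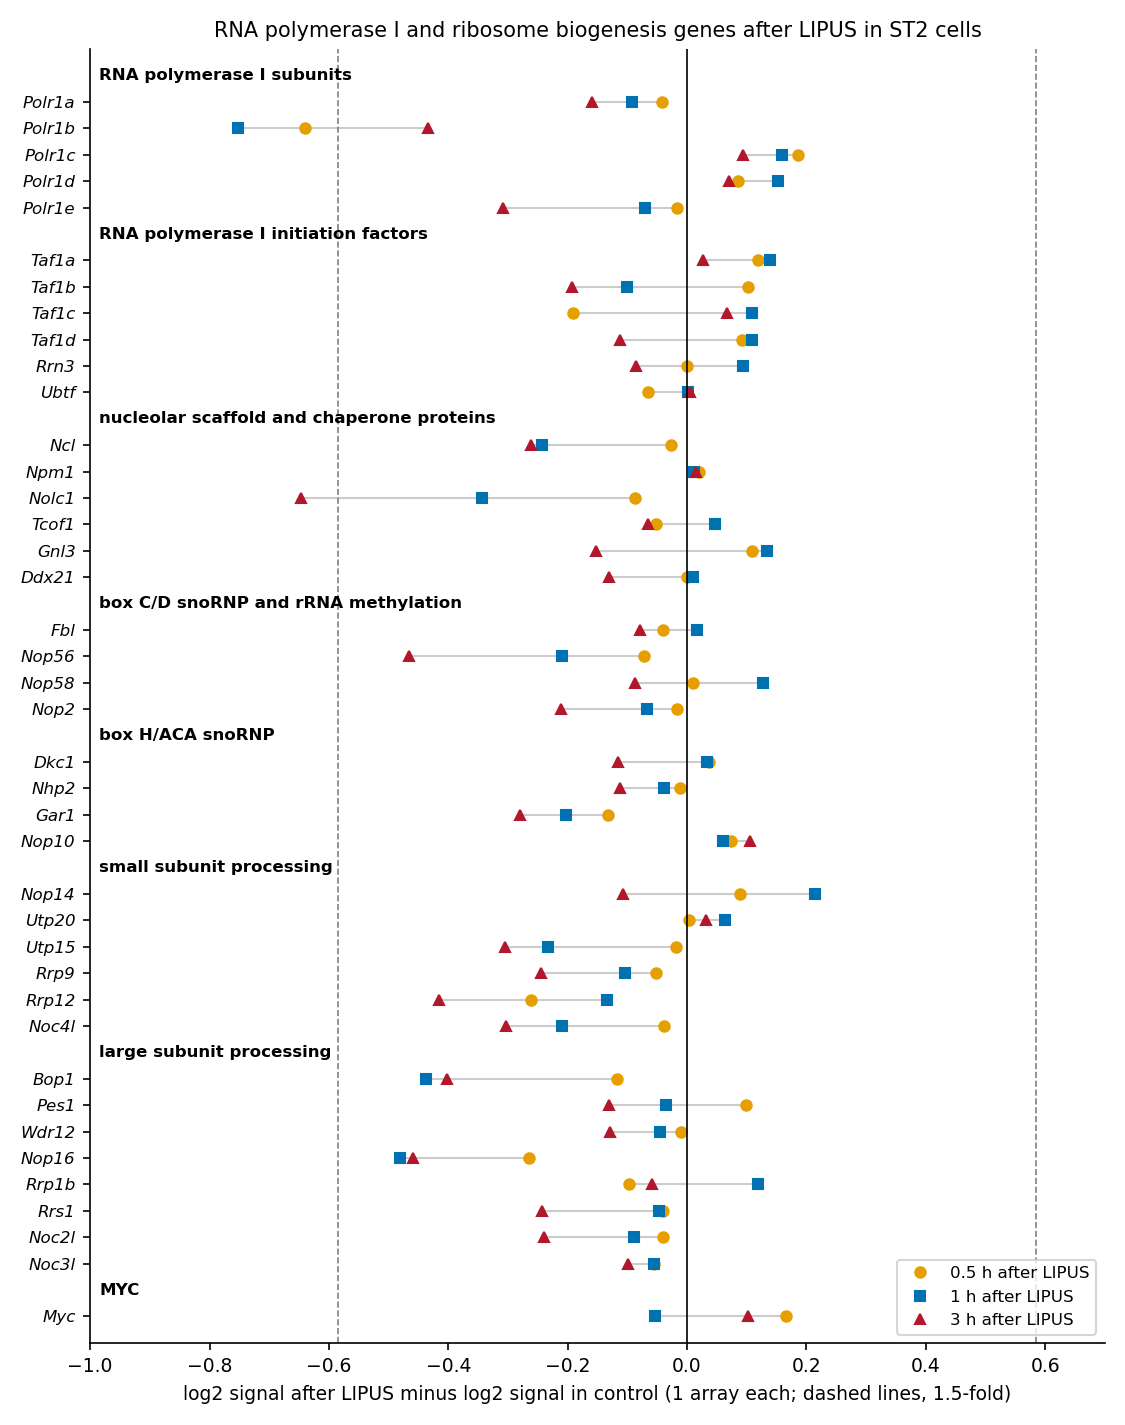
Log2 difference from the control of each member at 0.5, 1 and 3 h after LIPUS (1 array each), grouped by role. Polr1b stands lowest at 0.5 h (-0.64) and 1 h (-0.75) and Nolc1 at 3 h (-0.65); the highest value of any member is that of Nop14 at 1 h, 0.21.

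The order of the 4 arrays within each gene is a description, since each time was 1 array and timing cannot be told from differences between cultures. The 3 h array held the lowest of the 4 signals in 27 of 40 members, against 24.6% of genes above background, and the control held the highest in 19, against 25.4%. In 14 members the signal of the brightest probe set was lower at each step from control to 0.5 h, 1 h and 3 h, against 6.03% of genes: Polr1a, Polr1e, Ncl, Nolc1, Nop56, Nop2, Nhp2, Gar1, Utp15, Rrp9, Noc4l, Wdr12, Rrs1 and Noc2l. These 14 take in at least 1 gene of each class of machinery named above except the initiation factors and Myc. Nop2, Gar1 and Rrp9 have a single probe set. Of the others, only Nolc1 was lower at each step in every probe set above background. For the rest the order depends on the probe set taken, and some steps were small, as in Wdr12 (-0.01, -0.03 and -0.08). The step from 1 h to 3 h uses neither the control nor the 0.5 h array. It does share the single 3 h array with the counts above, so they are not separate evidence of direction. In this step 33 of 40 members were lower, against 54.7% of all genes, with a median of -0.09 beside -0.01. The other scalings gave 32 to 37 members, while the share of all genes ran from 45.3% to 66.4%, and the median of the members from -0.13 to -0.06. That step held 1 member past the limit of 0.32, Nop14, against 2.36% of genes. In the step from 0.5 h to 1 h, 24 of 40 were lower, against 46.4%, with 0 past that limit, against 2.09%. The shift in most members was therefore small, and its median was larger from 1 h to 3 h than from 0.5 h to 1 h (-0.02).

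Among the RNA polymerase I subunits, Polr1b is the one on which the list was selected, and its values against the control are a description. It encodes the second largest subunit, which forms part of the catalytic centre. On the log2 scale Polr1b read 7.24 in the control, then 6.60 at 0.5 h, 6.48 at 1 h and 6.80 at 3 h. The control was the highest array, the 1 h array the lowest, and the 3 h array lay between. Polr1b thus fell by 0.64 on the log2 scale at 0.5 h (1.56-fold lower) and by 0.75 at 1 h (1.68-fold lower), and at 3 h the difference was -0.43 (1.35-fold lower). Counted from the most lowered gene, it stood at rank 7 of 11574 genes at 0.5 h, 8 of 11497 at 1 h and 106 of 11574 at 3 h. From 1 h to 3 h it moved up by 0.32, the largest upward step of any member there. A single probe set measures Polr1b, so no other probe set can be set beside it. Because Polr1b is the member on which the list turned, the 250 bases before its start are shown, from RefSeq (GRCm38.p6, chr2:129100746-129100995, plus strand), in which neither motif searched for below was found:
Polr1b: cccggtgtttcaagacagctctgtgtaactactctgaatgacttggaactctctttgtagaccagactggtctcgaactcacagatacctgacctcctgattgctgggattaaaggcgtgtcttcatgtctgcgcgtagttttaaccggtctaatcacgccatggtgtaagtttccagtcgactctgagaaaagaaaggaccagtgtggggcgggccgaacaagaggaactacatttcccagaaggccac

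Polr1a, the largest subunit, completes the catalytic centre with Polr1b. It read 8.82 in the control, then 8.78 at 0.5 h, 8.73 at 1 h and 8.66 at 3 h. In this brightest probe set the signal was lowest at 3 h, at a difference of -0.16, and did not reach the limit of 0.32. The other probe sets of Polr1a above background were lowest at 0.5 h, at -0.25 and -0.23, and gave -0.14 and -0.15 at 3 h. Polr1e, which belongs to a mobile subcomplex that acts in initiation and elongation, read 7.49, 7.47, 7.42 and 7.18 in the same order. Polr1e was lowest at 3 h. Polr1c and Polr1d, the pair of assembly subunits that RNA polymerase III also contains, lay above the control at every time in their brightest probe sets: Polr1c read 9.85, 10.04, 10.01 and 9.95. Polr1d read 11.11, 11.20, 11.27 and 11.18. At 3 h the other probe set of Polr1c gave -0.14 and 1 of the 4 of Polr1d gave -0.08, so their direction at 3 h depends on the probe set taken. The second probe set of Polr1e was lower at 3 h, at -0.45. Of 9 further genes that encode subunits of RNA polymerase I, subunits shared with other polymerases or the TATA-binding protein, 7 were measured, none passed that limit, and their medians were 0.08, 0.04 and -0.01 at 0.5, 1 and 3 h. They include Twistnb, Cd3eap and Znrd1, the older symbols of Polr1f, Polr1g and Polr1h. Cd3eap read 7.87 in the control and 7.89, 8.07 and 7.70 after LIPUS, and Twistnb and Znrd1 lay within 0.20 of the control at every time.

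**Figure D3:**
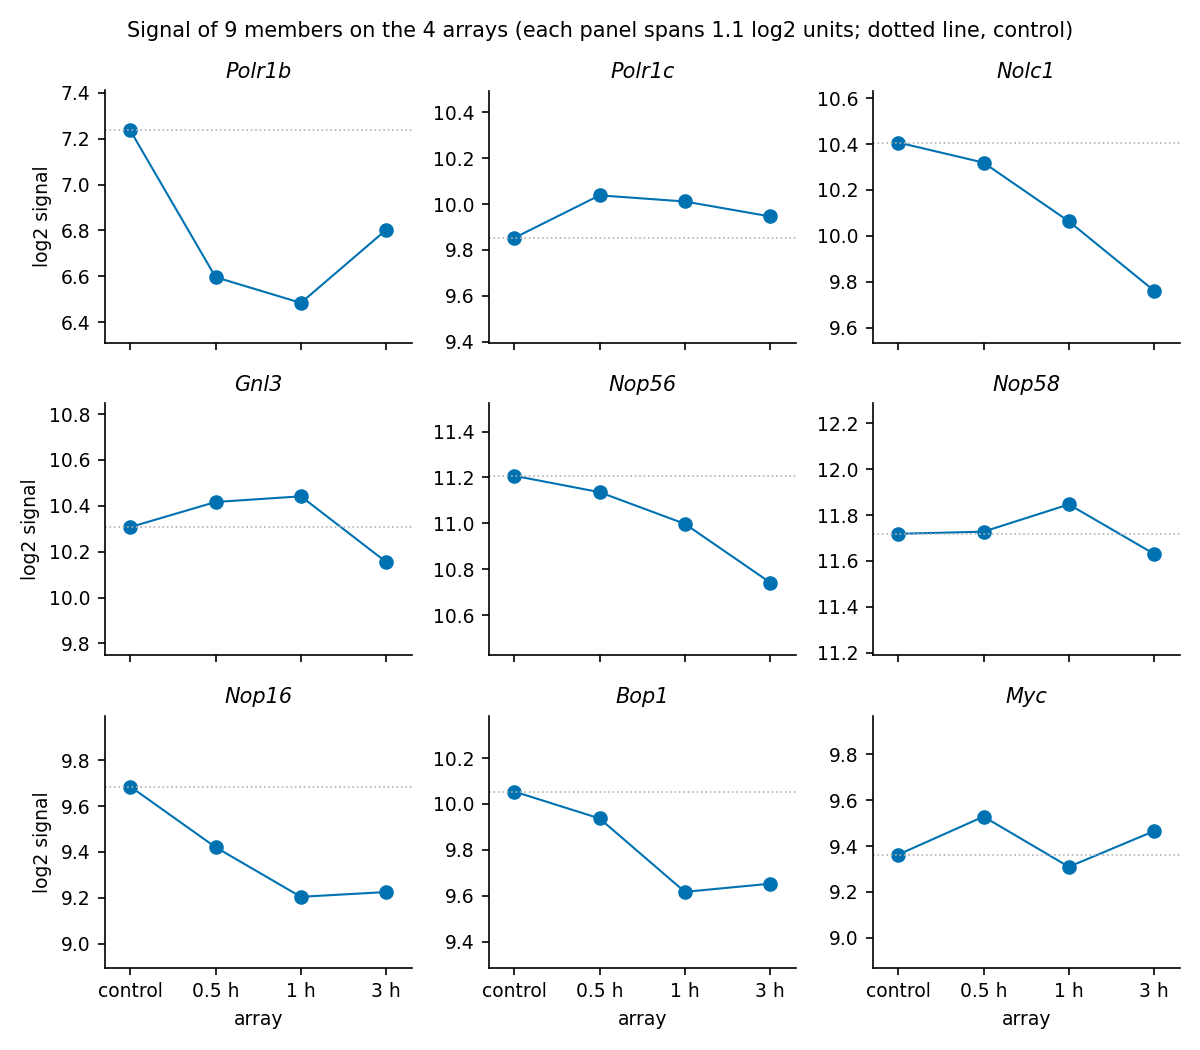
Log2 signal (vertical axis) on the 4 arrays, control, 0.5, 1 and 3 h (horizontal axis), for selected members, 1 point per array. Polr1b is highest in the control and lowest at 1 h, whereas Nolc1 is lower on each later array, from 10.41 to 9.76.

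The initiation factors bring RNA polymerase I to the rDNA promoter, and none of the 6 passed the limit of 0.32 at any time. Their median difference was 0.05 at 0.5 h, 0.10 at 1 h and -0.04 at 3 h. Ubtf, the factor that coats active rDNA, read 10.03 in the control, then 9.96 at 0.5 h, 10.03 at 1 h and 10.03 at 3 h, with differences of -0.06, 0.00 and 0.00. Rrn3, which links the polymerase to the promoter factor SL1 and through which growth signals are known to act, read 9.09, 9.09, 9.19 and 9.01. Neither gene shows a step of the size seen for Polr1b. The SL1 subunits were mixed. Taf1a read 6.52, 6.64, 6.66 and 6.55, and Taf1b read 8.09, 8.19, 7.99 and 7.90. Taf1c read 7.31, 7.11, 7.42 and 7.37, lowest at 0.5 h, with a difference of -0.19. Taf1d read 8.38, 8.47, 8.49 and 8.27 in its brightest probe set. The 5 probe sets of Taf1d above background disagreed at 1 h, with differences from 0.05 to 0.68, so its value depends on the probe set taken.

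Nolc1, a nucleolar phosphoprotein that chaperones box C/D and H/ACA snoRNPs, was the member with the largest difference at 3 h. On the log2 scale it read 10.41 in the control, then 10.32 at 0.5 h, 10.06 at 1 h and 9.76 at 3 h. Each later array was lower than the one before, without the partial return seen for Polr1b. The differences were -0.09 at 0.5 h and -0.34 at 1 h, and at 3 h Nolc1 fell by 0.65 on the log2 scale (1.57-fold lower), rank 14 from the lowest of 11574 genes. All 3 probe sets of Nolc1 were below the control at every time. The remaining probe sets of Nolc1 differed by -0.45 and -0.64 at 3 h, so the direction does not rest on 1 probe set. The 250 bases before its start are shown as those of the second member past 1.5-fold (RefSeq, GRCm38.p6, chr19:46075597-46075846, plus strand), again without either motif:
Nolc1: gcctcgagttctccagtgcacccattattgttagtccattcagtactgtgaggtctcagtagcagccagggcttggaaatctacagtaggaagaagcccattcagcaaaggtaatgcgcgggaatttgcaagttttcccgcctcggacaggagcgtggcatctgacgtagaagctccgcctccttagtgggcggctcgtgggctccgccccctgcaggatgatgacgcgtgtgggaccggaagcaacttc

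The other nucleolar scaffold and chaperone proteins stayed within the limit of 0.32 in their brightest probe sets. Ncl, the rRNA-binding protein nucleolin, read 13.12 in the control, then 13.09 at 0.5 h, 12.88 at 1 h and 12.86 at 3 h. The later pair of arrays was the lower one, with differences of -0.24 and -0.26. A further bright probe set of Ncl was past the limit, at -0.42 at 1 h and -0.41 at 3 h, and the remaining ones above background lay at -0.13 and -0.10 at 3 h, so the direction at 3 h was shared and the size was not. Npm1, the histone and ribosome chaperone nucleophosmin, read 13.16, 13.18, 13.17 and 13.17. Its differences were 0.02, 0.01 and 0.02. Tcof1, the treacle protein that holds RNA polymerase I at rDNA, read 8.70, 8.64, 8.74 and 8.63. Gnl3, the GTPase nucleostemin, read 10.31, 10.42, 10.44 and 10.15, above the control at 0.5 h and 1 h and below it at 3 h. Ddx21, an RNA helicase of the nucleolus, read 10.59, 10.59, 10.60 and 10.46. At 3 h, 5 of the 6 genes of this class lay below the control, with a median of -0.14, after 4 of 6 at 0.5 h and 2 of 6 at 1 h.

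All 4 box C/D and methyltransferase genes lay below the control at 3 h, against 47.5% of all genes measured. Their median was -0.15 at 3 h, after -0.03 at 0.5 h and -0.02 at 1 h. Nop56 and Nop58 form the paired core of the box C/D particle with the methyltransferase fibrillarin, and they differed in size here. Nop56 read 11.21 in the control, then 11.14 at 0.5 h, 11.00 at 1 h and 10.74 at 3 h, a difference of -0.47 at 3 h. Nop58 read 11.72, 11.73, 11.85 and 11.63, a difference of -0.09 at 3 h. The other probe set of Nop56 differed by only -0.17 at 3 h, so the direction at 3 h was shared and the size was not. Fbl, which encodes fibrillarin, read 11.65, 11.61, 11.67 and 11.57 in its brighter probe set. The other Fbl probe set differed by -0.30 at 1 h and -0.31 at 3 h. Nop2, an rRNA cytosine methyltransferase of the large subunit, read 9.59, 9.58, 9.52 and 9.38. The 250 bases before Nop56 and Nop58 are shown because both partners hold the hexamer discussed below. They come from RefSeq (GRCm38.p6, chr2:130274162-130274411 and chr1:59684756-59685005, both plus strand), with CTCGCG, the reverse complement of CGCGAG, in capitals:
Nop56: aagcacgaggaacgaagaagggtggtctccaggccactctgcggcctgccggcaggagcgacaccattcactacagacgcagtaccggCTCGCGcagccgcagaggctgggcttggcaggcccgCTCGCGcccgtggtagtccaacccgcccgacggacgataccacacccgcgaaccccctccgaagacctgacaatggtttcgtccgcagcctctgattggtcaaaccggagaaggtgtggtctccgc
Nop58: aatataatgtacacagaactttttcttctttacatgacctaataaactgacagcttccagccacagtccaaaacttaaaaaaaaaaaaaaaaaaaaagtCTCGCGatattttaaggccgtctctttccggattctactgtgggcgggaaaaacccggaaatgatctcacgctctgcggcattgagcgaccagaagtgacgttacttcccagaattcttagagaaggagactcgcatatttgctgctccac

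The 4 box H/ACA proteins, which carry out pseudouridylation of rRNA, stayed within that limit and had a median of 0.01 at 0.5 h, -0.00 at 1 h and -0.11 at 3 h. Dkc1, the pseudouridine synthase itself, read 11.07 in the control, then 11.10 at 0.5 h, 11.10 at 1 h and 10.95 at 3 h in its brightest probe set. Its other probe sets lay below the control at every time, by -0.26 and -0.28 at 3 h. Nhp2 read 11.77, 11.76, 11.74 and 11.66. Dkc1 and Nhp2 were both lowest at 3 h. Gar1, which helps release the modified RNA, read 10.19, 10.06, 9.99 and 9.91. Among the brightest probe sets of the group it showed the largest difference, -0.28 at 3 h. Nop10, a small core protein, lay above the control at every time in its brighter probe set, by 0.07, 0.06 and 0.11. The other probe set of Nop10 gave -0.01 at 3 h.

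The small subunit processing factors had the lowest median of the classes at 3 h, -0.27, after -0.03 at 0.5 h and -0.12 at 1 h. At 3 h, 5 of 6 lay below the control, against 47.5% of all genes measured. Rrp12, a factor for the export and maturation of pre-ribosomal particles, read 8.23 in the control, then 7.97 at 0.5 h, 8.10 at 1 h and 7.82 at 3 h. Its single probe set was lowest at 3 h, at -0.42, and differed by -0.26 at 0.5 h. Noc4l read 8.60, 8.56, 8.39 and 8.29. Utp15, a subunit of the complex that first binds the nascent precursor, read 8.67, 8.65, 8.43 and 8.36. Rrp9, a protein of the U3 snoRNP, read 8.64, 8.59, 8.54 and 8.40. These last 3 genes were lower on each later array in their brightest probe sets. Of the 4 probe sets of Noc4l, 2 lay above the control at 1 h, by 0.20 and 0.15, and the other probe set of Utp15 was higher at 1 h than at 0.5 h, by 0.24. All probe sets of Noc4l and Utp15 were below the control at 3 h. Utp20, a large scaffold protein, was the exception, with 10.24, 10.25, 10.31 and 10.28. Nop14 read 8.31, 8.40, 8.53 and 8.21, and so went from 0.21 above the control at 1 h to -0.11 at 3 h, the largest downward step of any member from 1 h to 3 h.

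In their brightest probe sets, all 8 large subunit assembly factors lay below the control at 3 h, with a median of -0.19. Over all genes measured, 47.5% did. At 0.5 h 7 of 8 lay below it (median -0.05), against 46.9% of all genes. At 1 h it was 7 of 8 (median -0.05), against 45.1%. Nop16 read 9.69 in the control, then 9.42 at 0.5 h, 9.20 at 1 h and 9.23 at 3 h. It was already at -0.26 at 0.5 h and reached -0.48 and -0.46 at 1 h and 3 h, with the later arrays alike. Bop1 and Pes1, which with Wdr12 form the PeBoW complex of large subunit maturation, did not share a size. Bop1 read 10.05, 9.94, 9.62 and 9.65, with differences of -0.44 at 1 h and -0.40 at 3 h. A dimmer probe set of Bop1, at 5.17 in the control and so near the background, gave 0.15 at 1 h and 0.00 at 3 h. The second probe set of Pes1 lay above the control at every time, by 0.15, 0.23 and 0.26, against -0.13 at 3 h for the one used. In that one Pes1 read 9.64, 9.74, 9.60 and 9.51, and Wdr12 read 10.03, 10.02, 9.99 and 9.91. Noc2l and Noc3l, which escort pre-60S particles, read 8.79, 8.75, 8.70 and 8.55, and 8.09, 8.03, 8.03 and 7.99. Rrs1, which brings 5S RNA into the particle, read 11.12, 11.08, 11.07 and 10.88. Rrp1b was the member of this class above the control at 1 h in its brightest probe set, with 7.79, 7.69, 7.90 and 7.73. Its other probe sets lay below the control at 1 h, by -0.08 and -0.14, and at 3 h, by -0.27 and -0.36.

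Myc, the transcription factor of the list, read 9.36 in the control, then 9.53 at 0.5 h, 9.31 at 1 h and 9.47 at 3 h. Its differences were 0.17, -0.05 and 0.10, without a common direction and all within the limit of 0.32. The 9 measured genes of the MYC and MAX network beside it held none past 1.5-fold, with medians of -0.06, -0.17 and -0.02. Mxd4, which encodes a MAX partner that opposes MYC, had the largest difference of that network, 0.48 at 3 h, from 7.74 in the control to 8.22.

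Over all probe sets of the members above background, more lay below the control at 3 h than at 0.5 h or 1 h. The 40 members have 86 probe sets, of which 79 were above background (log2 5.23, the median of all values) on at least 1 array. At 0.5 h 49 of these 79 were below the control, at 1 h 42 were, and at 3 h the number was 62. In the 25 members with more than 1 such probe set, all probe sets were below the control in 12 at 0.5 h, 7 at 1 h and 17 at 3 h. In none of the 25 was every probe set at or above the control at 3 h, whereas this held for 4 at 0.5 h and 5 at 1 h. The remaining 9, 13 and 8 members had probe sets on both sides. All these counts include the probe set that stood for each gene, so they partly repeat the counts of members above. The same counts were not made over all genes, so nothing is read from their size. The spread between the 2 brightest probe sets of a gene, both above background on every array, was taken over 5004 genes. Expressed as an SD per probe set of the log2 difference from control, it was 0.106 at 0.5 h, 0.157 at 1 h and 0.136 at 3 h. For 24 of the members it was 0.0781, 0.130 and 0.135. The difference of most single members at 3 h cannot be told from this spread between probe sets. The spread between cultures was not measured.

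**Figure D4:**
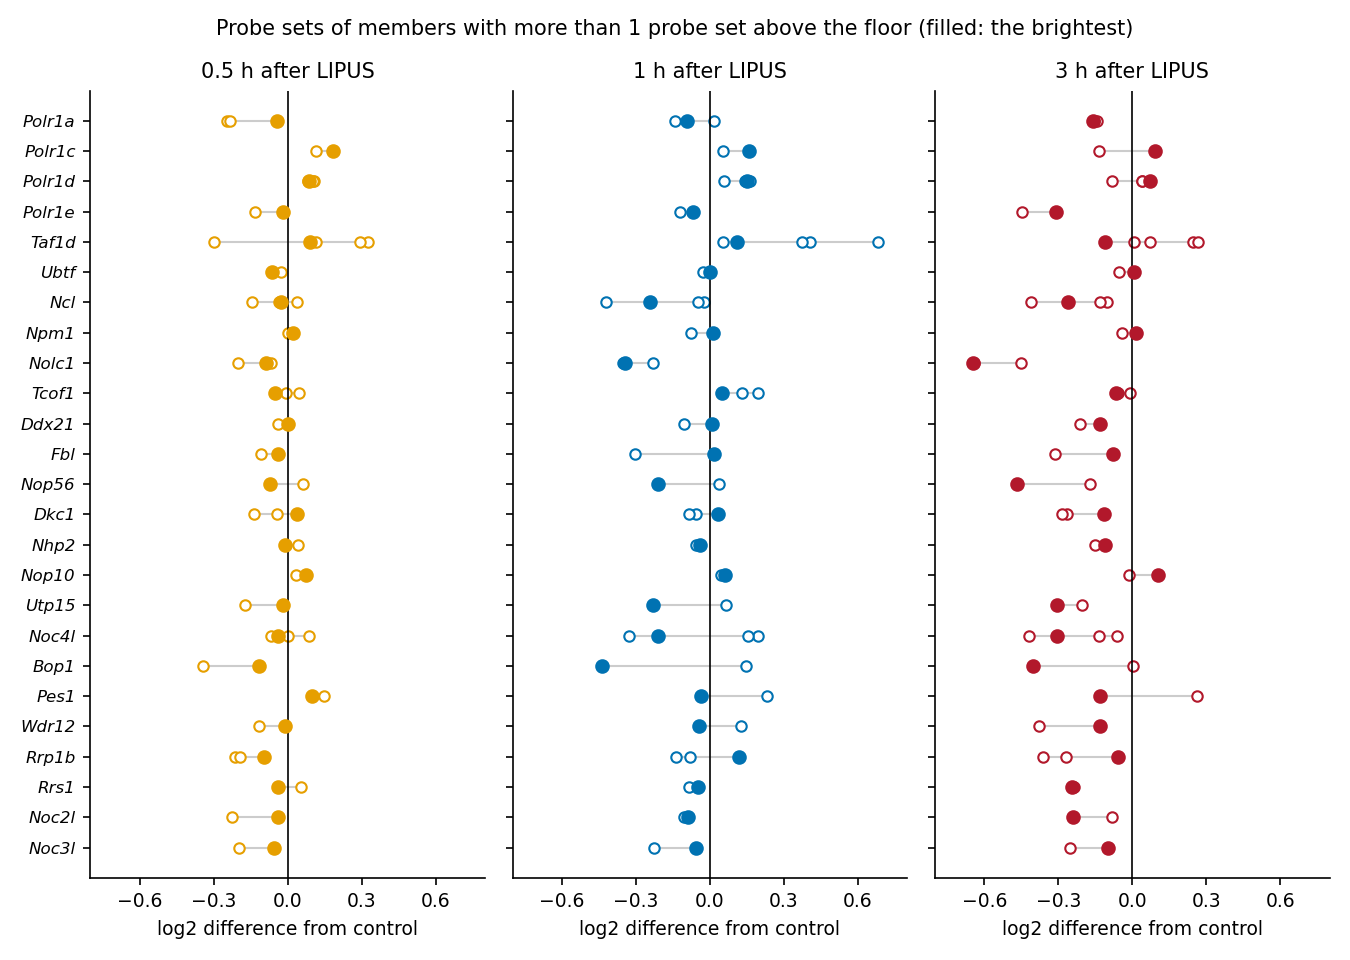
Log2 difference from the control (horizontal axis) of each probe set for the 25 members (rows) with more than 1 probe set above background at 0.5, 1 and 3 h after LIPUS, with the brightest one filled. In 17 of the 25 all points lie below 0 at 3 h, and the points of Taf1d are spread most widely at 1 h, up to 0.68.

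Further genes of ribosome assembly outside the list gave a smaller shift of the same sign at 3 h, and none passed 1.5-fold. The other lists differed in size or direction. Over all genes measured, 47.5% lay below the control at 3 h. Of 32 further small subunit processome genes, 22 lay below the control at 3 h, with medians of 0.05, 0.02 and -0.11 at 0.5, 1 and 3 h. Wdr3 was the highest of them at 3 h (0.13) and Nol11 the lowest (-0.29). Of 33 further large subunit factors measured, 28 lay below the control at 3 h, with medians of 0.00, 0.02 and -0.11. Ftsj3, a methyltransferase of large subunit processing, was the lowest of these at 3 h, reading 8.38 in the control and 8.31, 7.83 and 7.82 after LIPUS. Ppan was the lowest at 0.5 h, at -0.45, and Ddx10 was the highest at each time, at 0.18, 0.24 and 0.09. RNA polymerase III, which makes the 5S rRNA and transfer RNAs, had 14 of 18 genes below the control at 3 h, with a median of -0.05. Its lowest gene at 3 h was Polr3b, the counterpart of Polr1b in that enzyme, at -0.52. Polr3b read 7.90 in the control and 7.67, 7.49 and 7.39 after LIPUS. The highest gene of that list at 3 h was Maf1, at 0.20. The cytosolic ribosomal protein genes, the end products with which the rRNA assembles, had medians of 0.00, 0.01 and 0.01 over 42 measured genes of 76, and none passed 1.5-fold. The host genes of small nucleolar RNAs had medians of 0.19, 0.20 and 0.11 over 7 genes, above the control at all times, with Snhg12 at 0.41 at 0.5 h. The 15 measured regulators of RNA polymerase I had medians of 0.04, 0.03 and 0.03, with 11 above the control at 3 h. Among them, Cdkn2a rose at 1 h, by 0.78 on the log2 scale, and was the one gene of these 15 past 1.5-fold. Cdkn2a encodes p16 and p19ARF, the second of which is known to hold back ribosome production in the nucleolus, and it read 5.91 in the control, then 6.21 at 0.5 h, 6.68 at 1 h and 6.39 at 3 h. The probe set of Cdkn2a was not matched here to either product.

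**Figure D5:**
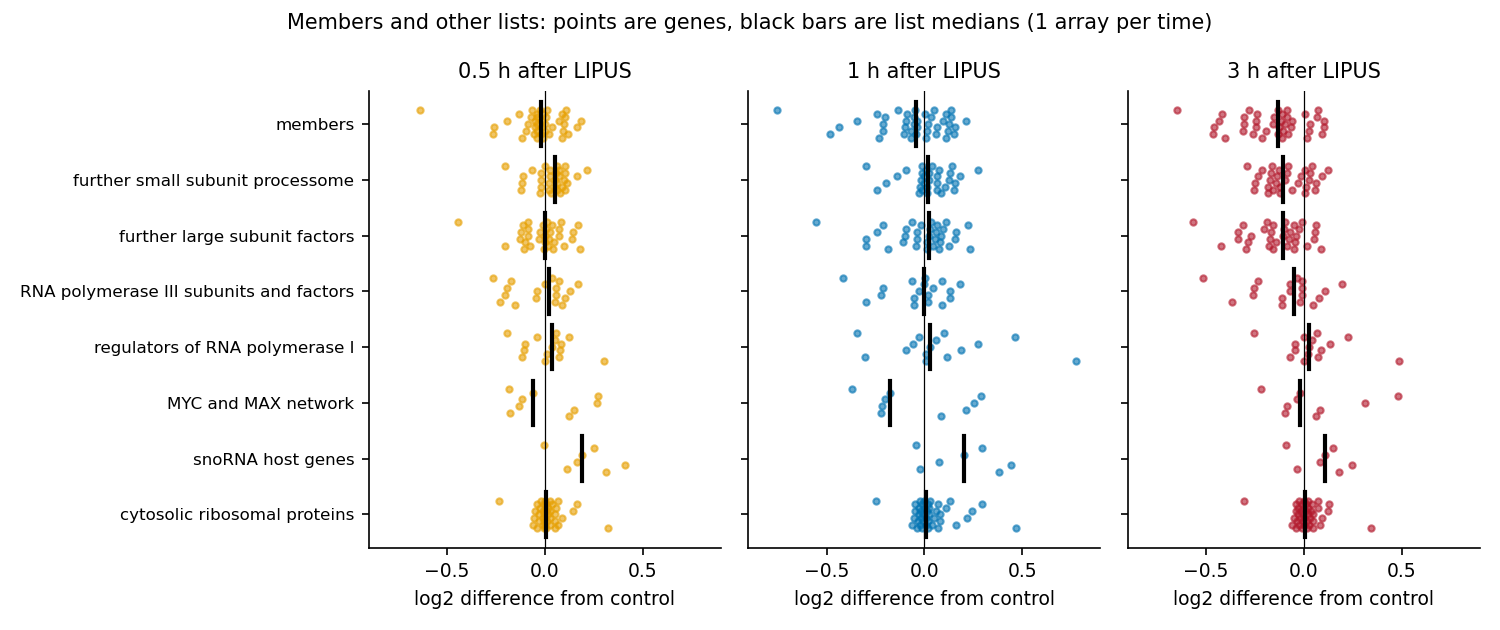
Log2 difference from the control (horizontal axis) at 0.5, 1 and 3 h for the members and the other gene lists (rows); points are genes and black bars are list medians. At 3 h the member median is -0.13, those of the further small and large subunit factors are both -0.11, and that of the ribosomal proteins is 0.01.

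The promoters of the list were described from RefSeq (GRCm38.p6), as the 250 bases before to 50 bases after each start. They were found for 33 of the 40 members, with 44 starts, and not for Npm1, Tcof1, Fbl, Rrp12, Bop1, Rrs1 and Myc. Both strands were searched for CACGTG, the E-box that MYC and MAX are known to bind, and for CGCGAG, a hexamer within elements known from housekeeping gene promoters (matches to CACGTG cannot overlap matches to the other word). CACGTG was present in 4 of the 33 members (12.1%), namely Nop2, Rrn3, Utp20 and Pes1, against 8.09% of 27025 genes. In Nop2 it lay 60 bases before the start, and in Rrn3 it lay at 215 and 48 bases before it. CGCGAG was present in 10 of the 33 (30.3%), against 12.3% of genes: Nop58, Wdr12, Ncl, Nop56, Noc2l, Nop14, Taf1d, Pes1, Ubtf and Polr1c. In the Nop56 sequence shown above it occurs at 162 and 126 bases before the start, and in that of Nop58 at 151. The member promoters were also richer in GC, at a median of 58.7% against 52.7% and held a median of 19 CG pairs against 7, and the shares above were not adjusted for this composition. Holders of CGCGAG include both Nop56 and Nop58, whose differences at 3 h were -0.47 and -0.09, and neither Polr1b nor Nolc1. A match of letters is a description and shows no binding.

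The arrays as a whole were alike, with correlations between 0.996 and 0.997 over 45101 probe sets. All 40 members were above background on every array, from 6.52 to 13.16 in the control with a median of 9.66, beside 8.15 over all genes measured. Of 12 stromal and fibroblast markers, 11 were above background on all arrays and Thy1 was under it, with a summed signal of 16.60 to 16.65 on the log2 scale. Of the haematopoietic markers 2 of 6 (Csf1r and Cd3e) were above background, of the endothelial ones 1 of 4 (Kdr), of the epithelial ones 1 of 4 (Epcam) and of the adipocyte ones 1 of 2 (Fabp4); Ptprc, Pecam1, Cdh1 and Adipoq were under it on every array. The 3 probe sets for 18S rRNA, the mature product of this pathway, were higher than in the control at every time, with medians of 0.96, 1.91 and 1.79. They are control features on a poly-A primed assay, and their signal was not taken as a measure of rRNA synthesis. The 27 probe sets of the bacterial poly-A controls had medians of -0.05, 0.29 and 0.36, and the 5′ minus 3′ difference was below the control in all 4 control genes at each time: by -0.06, -0.16 and -0.16 for Gapdh, -0.03, -0.13 and -0.09 for Actb, -0.41, -0.30 and -0.14 for Tfrc, and -0.09, -0.23 and -0.22 for Pcx. The 18S and poly-A values were higher at 1 h and 3 h than at 0.5 h, while the order of the times differed between the 5′ to 3′ values. Their part in the lower member signals at 3 h was not tested.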

How the data were processed

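Total RNA of 4 ST2 cultures was hybridised to Affymetrix mouse genome arrays, per the labels, after labelling from the poly-A tail. The authors deposited log2 signals per probe set on a common scale; the log base was read from the values, and their method of summarising and scaling was not given in the sources used here. Fold values were computed from these log2 differences. Probe sets with 1 symbol in the platform annotation were used, and the brightest on average stood for its gene. Comparisons took in genes with at least 1 array above the median of all values, log2 5.23, and lower values were raised to it. Calls used fixed sizes of 1.5-fold, a log2 difference of 0.32, and 2-fold. With 1 array per group no test was run. The members, the other lists and the sizes were chosen with earlier results of these data known. All members were described; genes outside the list are the extremes of their list or the gene past 1.5-fold, and the promoters shown were chosen after the values were seen. Twistnb, Cd3eap and Znrd1 were matched by older symbols. Alternatives covered the scaling (median centring, and quantile and cyclic loess with limma 3.58.1 in R 4.3.3), the floor, the probe set rule, the reference array and the size. Python 3.11.15 with pandas 2.3.3 and numpy 2.4.6 was used, and the size rule was tested on simulated data.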

Additional observations from a re-analysis of the deposited data

How the results depend on the processing

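The median of the members at 3 h ran from -0.17 to -0.13 over 10 alternatives and stayed below 0. The medians at 0.5 h (-0.04 to 0.05) and 1 h (-0.08 to 0.01) lay above 0 with the mean of the other 3 arrays as the reference. The counts of members at least 1.5-fold lower became 0 at 0.5 h and 1 h with the floor at the 75th percentile of all values, which Polr1b does not exceed. The count became 0 at 3 h with the mean of all probe sets of a gene, where Nolc1 differed by -0.58. With the mean of the other arrays as the reference, it became 0 at 0.5, 1 and 3 h, where Polr1b differed by -0.24 and -0.39 at 0.5 h and 1 h and Nolc1 by -0.50 at 3 h. It was 0 at every time with the 2-fold size, and 4 at 1 h and 6 at 3 h with the size of 0.32 on the log2 scale, which also gave 1 member in the step from 1 h to 3 h. No value past 1.5-fold changed sign, but Polr1b at 3 h (-0.43, past the wider size) became 0.03 with the mean of the other arrays as the reference. With 1 array per group, no array could be left out. No paired analysis was possible because each group holds 1 array. The precision is limited by this number of arrays.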
